A study of Mus musculus with 3 samples.

Results

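The cadherin superfamily genes outside the clustered protocadherins were described in cultured mouse hippocampal neurons. Members were taken by symbol: Cdh followed by a number, Pcdh followed by a number with or without an x, Celsr1 to Celsr3, Fat1 to Fat4, and Dchs1 and Dchs2. Of the 47593 gene rows in the deposited tables, 44 had such a symbol. Cadherins are calcium-dependent adhesion proteins of the cell surface. Classical cadherins bind the same kind of cadherin on a neighbouring cell and are tied to actin inside the cell by catenins. In hippocampal neurons they are known from synaptic junctions and dendritic spines. Nonclustered protocadherins lack the catenin-binding tail, seven-pass Celsr cadherins belong to the planar polarity pathway, and the giant cadherins of the Fat and Dachsous families bind each other across cell borders.

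All 3 libraries came from wild-type primary neurons of the hippocampus that received fresh medium holding B27 and penicillin-streptomycin. They form a single group, replicates 1 to 3. They had been grown in Neurobasal, a neuronal medium, to which 1% GlutaMAX and 10% B27 were added, at 37 °C in 5% CO2. The series gives a treatment time of 24 h. The arm given apoE particles, to which the series compares these cells, was not analysed here, so no value below is a response to a treatment. The labels do not say whether the replicates were separate cultures or animals, so their spread may be technical. Neither the age of the animals nor the days in culture are given in the labels.

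Levels are counts per 1000000 reads (CPM), and CPM per kilobase (kb) of exon where genes are compared with each other. Whole reads were recovered from the deposited log2 values and numbered 18780572, 18683966 and 18885652 in replicates 1, 2 and 3, with at least 1 read for 22244 to 22321 genes. At this depth 3 reads, the limit that a count of 0 allows, equal 0.159 to 0.161 CPM in a library. The neuronal label was checked by its markers, and all 6 pan-neuronal ones were detected with a summed level of 5866 to 5931 CPM. All 4 excitatory and 3 inhibitory neuron markers were detected as well. Markers of other cells of brain tissue were also detected: 4 of 5 for astrocytes (sum 1348 to 1380 CPM), 4 of 4 for progenitors (1017 to 1057 CPM) and 4 of 4 for oligodendrocyte precursors (250 to 267 CPM). Whether the astrocyte and progenitor markers came from separate cells was not tested. None of the 4 microglial (1.86 to 3.07 CPM), 4 endothelial (1.07 to 1.32 CPM) or 3 muscle markers was detected. The part of each cell type in the levels below was not tested, and in such bulk RNA fewer cells of a type and less RNA per cell cannot be told apart.

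The sequences before the start sites of 5 members are shown first, as members with high and low levels are set against the CG dinucleotides that stood there. Windows of 250 bases ending just before the annotated start were read from RefSeq promoters on GRCm38.p6 and are written 5′ to 3′ on the gene's strand, with every CG in capitals. Pcdh10 (chr3:45378148-45378397, plus strand, 22 CG) is the delta-2 protocadherin with the most reads. Celsr2 (chr3:108415580-108415829, minus strand, 32 CG) had the most CG of all matched members. Pcdh8 (chr14:79771313-79771562, minus strand, 11 CG) holds a TATAAA. Cdh23 (chr10:60696491-60696740, minus strand, 5 CG) and Cdh26 (chr2:178430265-178430514, plus strand, 0 CG) stand for members below the detection threshold.
Pcdh10: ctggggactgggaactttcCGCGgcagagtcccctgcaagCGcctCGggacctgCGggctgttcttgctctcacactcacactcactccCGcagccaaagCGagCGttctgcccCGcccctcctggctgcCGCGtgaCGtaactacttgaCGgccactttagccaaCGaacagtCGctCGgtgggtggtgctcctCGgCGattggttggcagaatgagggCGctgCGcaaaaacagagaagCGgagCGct
Celsr2: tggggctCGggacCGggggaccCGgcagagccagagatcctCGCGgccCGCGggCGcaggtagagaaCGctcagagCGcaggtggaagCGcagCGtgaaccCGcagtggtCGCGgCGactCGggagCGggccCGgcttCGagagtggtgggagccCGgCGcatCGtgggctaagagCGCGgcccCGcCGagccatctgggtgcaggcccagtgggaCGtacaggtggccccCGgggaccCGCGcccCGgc
Pcdh8: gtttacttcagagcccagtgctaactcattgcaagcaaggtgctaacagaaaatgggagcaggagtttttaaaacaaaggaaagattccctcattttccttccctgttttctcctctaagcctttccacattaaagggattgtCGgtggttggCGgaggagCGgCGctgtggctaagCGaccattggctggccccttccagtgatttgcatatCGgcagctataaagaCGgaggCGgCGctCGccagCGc
Cdh23: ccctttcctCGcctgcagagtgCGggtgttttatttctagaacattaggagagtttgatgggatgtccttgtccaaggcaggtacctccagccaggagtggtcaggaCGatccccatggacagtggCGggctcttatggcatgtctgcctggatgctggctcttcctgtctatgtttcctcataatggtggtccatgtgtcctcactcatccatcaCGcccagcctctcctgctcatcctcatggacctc
Cdh26: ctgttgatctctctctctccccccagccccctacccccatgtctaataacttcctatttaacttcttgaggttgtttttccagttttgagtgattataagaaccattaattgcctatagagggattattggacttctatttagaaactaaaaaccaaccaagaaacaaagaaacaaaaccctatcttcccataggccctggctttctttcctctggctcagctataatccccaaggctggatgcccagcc

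A window was found for 29 of the 44 members, 32 windows in all. The other 15 are Cdh1, Cdh2, Cdh3, Cdh4, Cdh5, Cdh11, Cdh13, Cdh16, Cdh17, Cdh19, Celsr1, Dchs1, Pcdh1, Pcdh11x and Pcdh12. Taking the richest window of each gene, 16 of the 29 (55.2%) held 10 or more CG. The share over all 32851 RefSeq windows was 37.8%, but it counts every window of a gene and all kinds of genes. These 2 shares are therefore not alike, and no excess among the members can be read from them. Of the 16 matched members at 20 CPM or more, 13 reached 10 CG, with a median of 19. Below 20 CPM, 3 of 13 did (Dchs2 22, Cdh7 17 and Cdh20 10), with a median of 6. The same split over all protein-coding genes, again with the richest window of each gene, gave 86.3% at 20 CPM or more and 35.6% below it. This is the same direction as among the members. The 3 exceptions on the high side were Pcdh7 with 7 CG, and Fat1 and Cdh10 with 2 each. For Fat1 and Cdh10 the RefSeq start lay 14761 and 1382 bases from the start of the gene in the GENCODE annotation. The distance was also large for 4 matched members with few CG and low levels, at 722525 bases for Pcdh15, 662187 for Cdh12, 487441 for Cdh18 and 24307 for Fat2. Both limits, 20 CPM and 10 CG, were set after the values were seen. The letters TATAAA, searched on both strands, stood in the windows of Pcdh8 and Pcdh15 (2 of 32, against 12.4% of all windows), and CACCTG, an E-box sequence, in 5 of 32 (17.2% of all windows). Such matches describe these letters in these windows only.

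**Figure D1:**
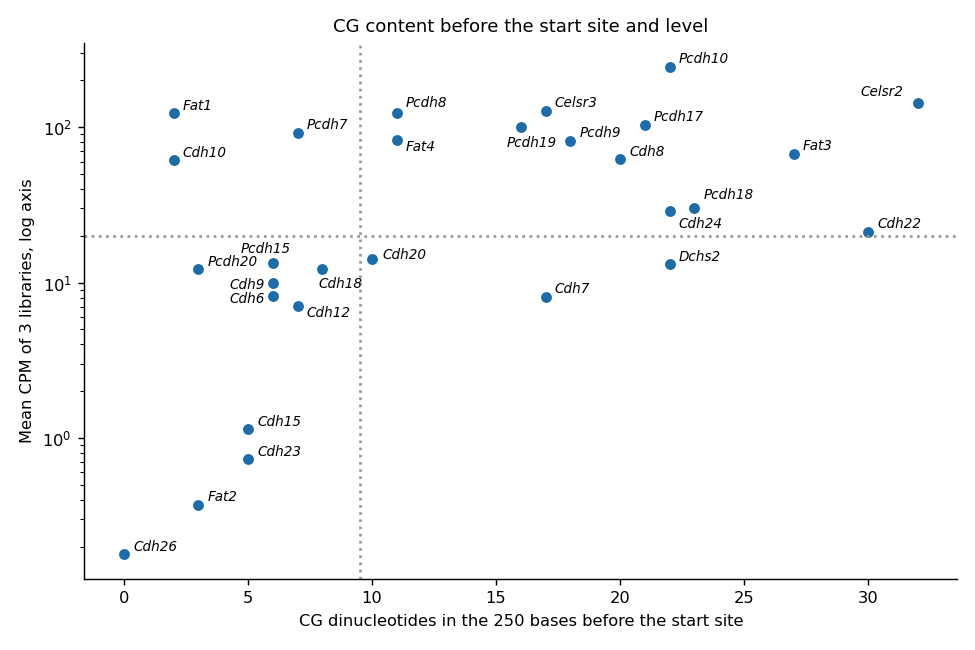
CG dinucleotides in the 250 bases before the RefSeq start site (horizontal axis, count) against the mean level of the gene (vertical axis, CPM, log scale) for the 29 matched cadherin superfamily genes. Dotted lines mark 10 CG and 20 CPM; 13 of the 16 genes above 20 CPM lie to the right, and Fat1 and Cdh10, with 2 CG each, lie far to the left.

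A gene was called detected at 1 CPM or more in every library. By this rule 34 of the 44 members were detected, against 59.0% of protein-coding genes and 29.4% of all genes in the files. On recovered reads it was 33 of 44, against 58.2% of protein-coding genes. The median level was 25.0 CPM over all 44 members and 5.31 CPM over all protein-coding genes, and 74.8 against 32.3 CPM over the detected ones. Members are long genes, with a median exon length of 8431 bases against 3528 for protein-coding genes, and longer genes yield more reads at equal RNA number. Together the members held 166074 reads, or 0.294%, 0.293% and 0.297% of the reads in replicates 1, 2 and 3. By role, detection was complete for the delta-1 protocadherins (4 of 4), delta-2 protocadherins (5 of 5), Celsr genes (3 of 3) and Dachsous genes (2 of 2). It reached 11 of 13 for type II classical cadherins, 3 of 5 for type I, 3 of 4 for the Fat genes and 2 of 3 for the remaining nonclustered protocadherins. The single GPI-anchored cadherin was detected, and none of Cdh16, Cdh17, Cdh23 and Cdh26.

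**Figure D2:**
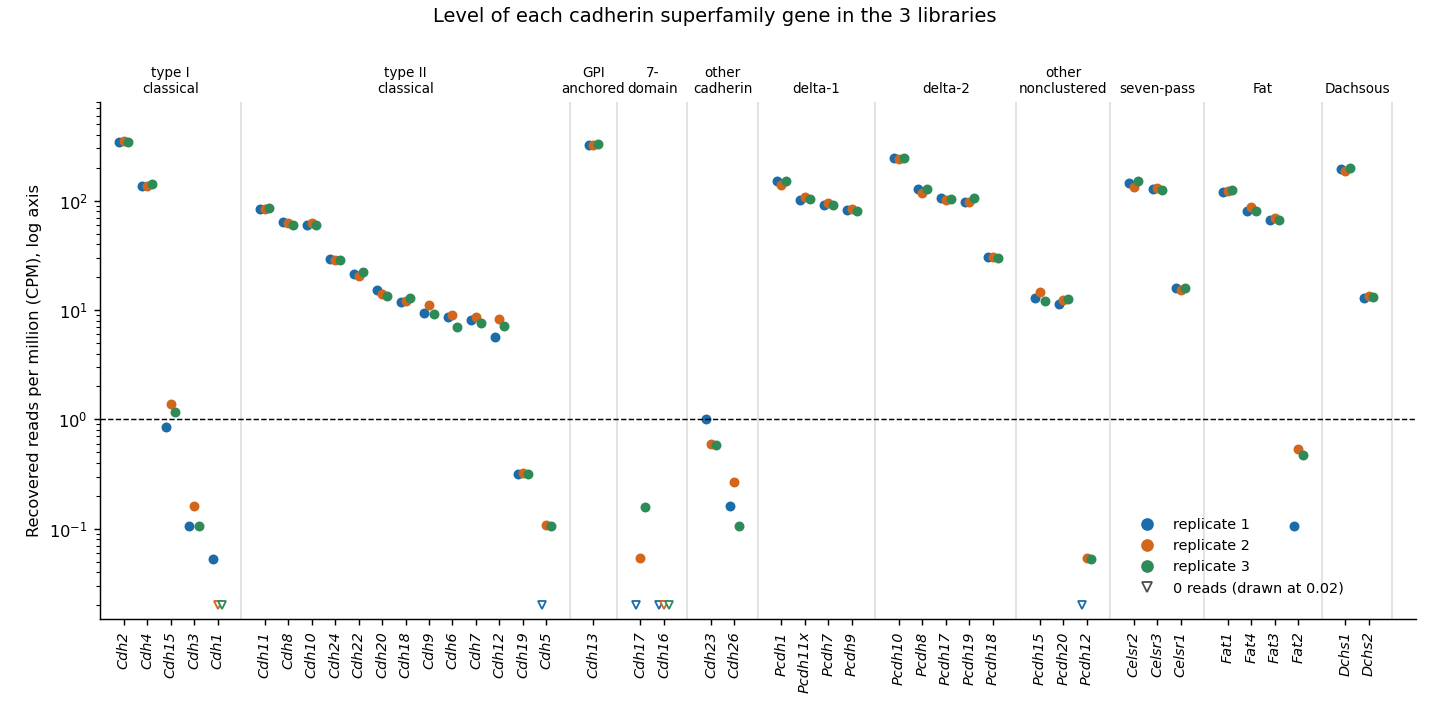
Level of each of the 44 genes in replicates 1, 2 and 3 (coloured points), in CPM on a log axis, grouped by role and ordered by level within a role. Open triangles at the foot mark libraries with 0 reads and the dashed line marks 1 CPM; Cdh2, Cdh13 and Pcdh10 lie highest, and Cdh16 has 0 reads in every library.

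Among type I classical cadherins, Cdh2 (N-cadherin, of neural tissue and synaptic junctions; chromosome 18, 16588877 to 16809246, minus strand) was the highest of all members. Its deposited log2 values were 12.66, 12.68 and 12.66, from 6481, 6591 and 6486 reads, which is 347 ± 4.98 CPM (SD, n = 3). Cdh4 (R-cadherin; chromosome 2, 179442431 to 179899373, plus strand) followed with 2543, 2561 and 2655 reads, 138 ± 2.64 CPM. Per kb Cdh2 was higher than Cdh4 in all 3 libraries, by 1.16 on the log2 scale (SD 0.04 in recovered reads). The epithelial members were nearly absent. Cdh1 (E-cadherin) had 1, 0 and 0 reads and Cdh3 (P-cadherin) had 2, 3 and 2. In each single library these counts lie at or below the 3 reads that a count of 0 allows. Over all libraries Cdh3 had 7 reads, and its 0.124 CPM lies above the pooled limit of 0.0532 CPM. Cdh1, with 1 read in all, lies below that limit, and expression below it was not detectable at this depth. Of the 5 epithelial and choroid plexus markers, only Ttr was detected (2.79 ± 0.435 CPM, n = 3), and Krt8 had 0 reads. Cdh15 (M-cadherin, of muscle precursors) had 16, 26 and 22 reads, 1.14 ± 0.271 CPM. It was the member just inside the detection threshold and fell outside it in replicate 1 when recovered reads were used. The muscle markers Myod1, Myog and Des had 2, 1 and 2 reads over all libraries.

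Type II classical cadherins, which are known for marking subsets of neurons, ranged from 0.0710 to 84.6 CPM, with a median of 12.3. Cdh11 (chromosome 8, 102632095 to 102785642, minus strand) led with 1575, 1575 and 1617 reads, 84.6 ± 0.915 CPM. Next were Cdh8 with 1196, 1166 and 1141 reads (62.2 ± 1.65 CPM) and Cdh10 with 1137, 1167 and 1141 reads (61.1 ± 1.15 CPM). These 3 genes were the only type II members above 30 CPM. Cdh24 (28.7 ± 0.526), Cdh22 (21.3 ± 0.951), Cdh20 (14.2 ± 0.866) and Cdh18 (12.3 ± 0.454 CPM, n = 3 each) came after them. Cdh9, which acts at dentate gyrus to CA3 synapses, had 177, 208 and 174 reads, 9.92 ± 1.05 CPM. Cdh6 had 8.18 ± 1.05, Cdh7 8.11 ± 0.496 and Cdh12 7.06 ± 1.36 CPM. The reads of Cdh12 were 106, 156 and 136, so replicate 1 was the low library. Cdh5 (VE-cadherin, of endothelium) had 0, 2 and 2 reads, in libraries in which the endothelial marker Cldn5 had 0 reads. Cdh19, known from the Schwann cell lineage, had 6 in each library, beside 2.89 ± 0.564 CPM of Sox10, which oligodendrocyte precursors share.

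Within type II, the levels per kb of Cdh8 stood below those of Cdh11 by a small margin, the difference being -0.23 on the log2 scale (SD 0.05). Cdh6 and Cdh9 stood below Cdh10 by more, with differences of -2.23 (SD 0.11) and -1.0 (SD 0.10), or -3.48 and -2.34 per kb of the longest transcript. Cdh11 itself stood below Cdh2, with a difference of -2.12 (SD 0.03). Each of these directions was the same in all 3 libraries. Cdh10 is also the gene whose place depends most on the length used: its exons sum to 10051 bases but its longest transcript has 3765. Its rank among members rose from 19 to 8 with the latter length, the largest move of any detected member.

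Cdh13 (T-cadherin; chromosome 8, 118283733 to 119324921, plus strand), which is held in the membrane by a GPI anchor and has no catenin-binding tail, had 6036, 5970 and 6285 reads. At 325 ± 7.18 CPM it was second to Cdh2. Per kb of all annotated exons it was lower than Cdh2 in each library (-0.57 on the log2 scale, SD 0.05). Per kb of the longest transcript the difference was -0.01 (SD 0.05), which is inside the spread between libraries. The cadherins of kidney and of intestine, Cdh16 and Cdh17, had 0, 0 and 0 reads and 0, 1 and 3 reads. For Cdh16, 0 of 56350190 reads over all libraries allow up to 0.0532 CPM.

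All 4 delta-1 protocadherins lay between 82.0 and 147 CPM. Pcdh1 (2811, 2604 and 2857 reads; 147 ± 6.46 CPM) was the highest, followed by Pcdh11x (104 ± 3.39), Pcdh7 (92.0 ± 1.95) and Pcdh9 (82.0 ± 2.10 CPM, n = 3 each). Per kb the highest of them was 2.24-fold above the lowest, against 4.85-fold among the delta-2 2.49-fold among the detected Fat genes and 11.8-fold among the detected type II genes. With the longest transcript the fold was 2.59 for delta-1 and 2.30 for the Fat genes. Pcdh9 was higher per kb than Pcdh7 in all libraries, by 0.46 on the log2 scale (SD 0.02). That order rests on the length scaling, since Pcdh7 had the more reads.

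Delta-2 protocadherins, several of which bind the WAVE complex of actin assembly, held the largest share of the members' reads of any role group, 20.4%. Pcdh10 (chromosome 3, 45378398 to 45435623, plus strand; its upstream sequence is printed above) had 4626, 4540 and 4604 reads, 244 ± 1.74 CPM. Its libraries lay closer together than those of any other member above 100 CPM, relative to the level. Pcdh8 (arcadlin, induced by neuronal activity; chromosome 14, 79766775 to 79771312, minus strand) had 2409, 2179 and 2401 reads, 124 ± 6.42 CPM, with replicate 2 the lowest. Pcdh17 had 104 ± 2.44, Pcdh19, an X-linked epilepsy gene, 99.7 ± 4.30 and Pcdh18 30.3 ± 0.515 CPM. Which of Pcdh8 and Pcdh10 is the higher depends on the length. With all annotated exons Pcdh8 was above Pcdh10 by 0.81 (log2, SD 0.07). With the longest transcript the difference was -0.11, and without length scaling -0.98. Pcdh17 was below Pcdh10 (-0.91, SD 0.02; -1.66 with the longest transcript) and, by less, below Pcdh19 (-0.24, SD 0.07) per kb, the latter order turning without length scaling (0.06).

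Pcdh15 and Cdh23 are known for forming the tip links of inner-ear hair cells together. Pcdh15 had 242, 275 and 230 reads, 13.3 ± 1.31 CPM. Cdh23 had 19, 11 and 11 reads, 0.728 ± 0.246 CPM, and was the member just outside the detection threshold. Of 7 other genes of the tip-link complex, Myo7a (13.8 ± 0.0798) and Tmie (4.99 ± 0.281 CPM) were detected, while Tmc2 had 0 reads and Tmc1 5 in all. Pcdh20 had 12.2 ± 0.670 CPM. Pcdh12, an endothelial protocadherin, had 0, 1 and 1 reads. Cdh26 had 3, 5 and 2.

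All 3 Celsr genes were detected at unequal levels. Celsr2 (chromosome 3, 108390851 to 108415552, minus strand), which is known from dendrite growth, had 2703, 2500 and 2856 reads, 143 ± 8.75 CPM. Celsr3, required for axon tracts, had 2382, 2427 and 2371 reads, 127 ± 2.24 CPM. Celsr1, best known from epithelial planar polarity and progenitors, had 298, 283 and 300 reads, 15.6 ± 0.421 CPM. Per kb, Celsr1 stood far below Celsr3 (-2.53 on the log2 scale, SD 0.05). Celsr2 was above Celsr3 by 0.22, but with an SD of 0.11.

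The giant cadherins were led by Dchs1 (chromosome 7, 105752990 to 105787654, minus strand), the ligand partner of Fat4, at 193 ± 4.96 CPM (n = 3). Dchs2 had 241, 249 and 250 reads, 13.1 ± 0.264 CPM. The difference per kb between Dchs1 and Dchs2 was 3.38 on the log2 scale (SD 0.05). Among the Fat genes, Fat1 had 2277, 2280 and 2357 reads (123 ± 1.87 CPM), Fat4, the receptor of Dchs1, 1503, 1639 and 1534 (83.0 ± 4.14 CPM), and Fat3 1250, 1304 and 1257 (67.6 ± 1.87 CPM). Fat2, known from cerebellar granule cells, had 2, 10 and 9 reads and was not detected. Per kb, Fat4 was below Dchs1 (-1.75, SD 0.10), Fat3 was below Fat4 (-0.55, SD 0.03), and Fat1 was above Fat3 (1.19, SD 0.04).

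Across all roles, the order of the 34 detected members per kb began with Cdh2 (43.0 ± 0.617), Cdh13 (28.9 ± 0.639), Pcdh8 (27.3 ± 1.41), Cdh4 (19 ± 0.364), Dchs1 (17.4 ± 0.449), Pcdh1 (16.7 ± 0.735) and Pcdh10 (15.4 ± 0.109 CPM per kb, n = 3 each). Of the 33 neighbouring pairs in this order, 12 overlapped between libraries and 21 did not. Dchs1 and Pcdh1 overlapped, as did Celsr2 with Pcdh9, Pcdh19 with Cdh11, and the run from Cdh24 through Cdh8 and Pcdh17 to Fat1. In shares of the members' summed level per kb, delta-2 protocadherins held 21%, type I cadherins 19.9%, type II cadherins 15.8%, delta-1 protocadherins 14.3%, Cdh13 alone 9.22%, the Celsr genes 7.79%, the Dachsous genes 5.95% and the Fat genes 5.06%. These shares depend on the length used: per kb of the longest transcript, type I cadherins (20.9%) stood above delta-2 protocadherins (18.3%), and Cdh13 held 15.9%.

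**Figure D3:**
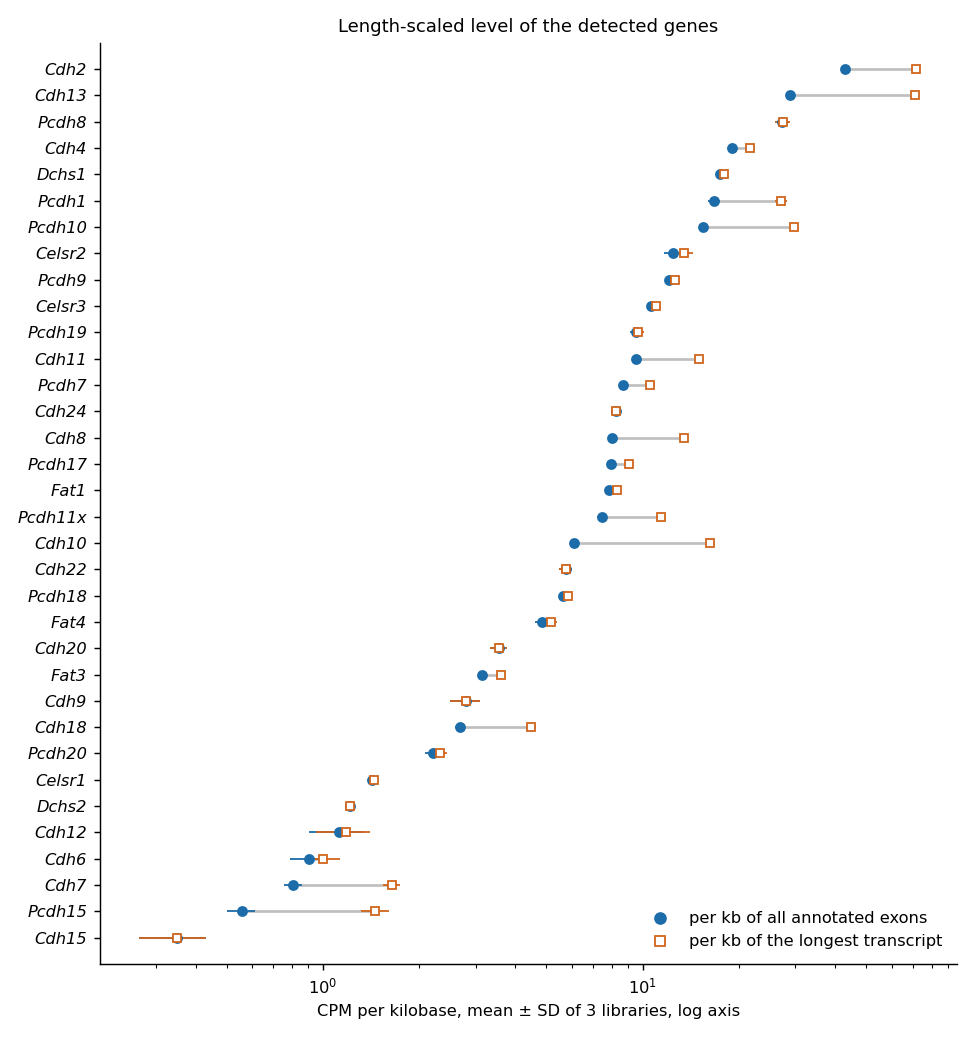
Level per kilobase of the 34 detected genes (CPM per kb, log axis, mean ± SD of 3 libraries), with circles for the length of all annotated exons and squares for the longest annotated transcript. Cdh2 and Cdh13 lie at the top with either length, and Cdh10 moves from rank 19 to rank 8.

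The 22 gene pairs set side by side included 19 of members only and 3 with catenins. In 10 the first gene was higher in every library and in 12 the second, and each had p = 0.25 in the two-sided exact sign-flip permutation test (adjusted p 0.25). This is the smallest p that 3 libraries allow, so no pair could pass a threshold of 0.05, and the steadiness of a pair is given by its SD. The pairs of Cdh2 with Cdh1 and of Fat2 with Fat3 are given above as reads, since one gene of each lies near 0.

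The cytoplasmic partners of the classical cadherins were mostly detected, at unequal levels. Of 11 catenins and adaptors 10 were detected, led by Ctnnb1 (beta-catenin, which binds the cadherin tail) at 694 ± 7.93 CPM, Ctnnd2 (delta-catenin, neuronal) at 367 ± 16.2 and Ctnna2 (the neuronal alpha-catenin) at 195 ± 0.724. Ctnnd1 (19.2 ± 1.06) and Vcl (7.84 ± 0.394 CPM) lay below the 32.3 CPM median of detected protein-coding genes, and Ctnna3 had 23 reads in all. The neuronal forms were above the general ones per kb, Ctnna2 above Ctnna1 by 1.20 (log2, SD 0.04) and Ctnnd2 above Ctnnd1 by 3.53 (SD 0.02; 4.15 with the longest transcript). Cdh2 stood below Ctnnb1, with a difference of -1.62 (SD 0.03). Summed over the 18 classical cadherins, the level was 112 ± 0.971 CPM per kb against 134 ± 1.53 for Ctnnb1, a ratio of 0.838 ± 0.0160 (n = 3), and 0.873 ± 0.0172 with the longest transcripts. Cdh2 made up 38.4% of that classical sum, or 42.9% with the longest transcripts. These are levels of RNA and say nothing of protein.

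Of the WAVE complex genes, bound by delta-2 protocadherins, 10 of 11 were detected, with Nckap1 at 611 ± 5.41, Cyfip2 at 406 ± 16.3 and Wasf1 at 230 ± 21.6 CPM. Abi3 had 2 reads in all. All 10 planar polarity partners of the Celsr genes were detected, with Prickle2 at 107 ± 1.98, Dvl1 at 91.0 ± 1.70 and Vangl2 at 66.9 ± 2.14 CPM. All 10 genes listed as partners of the Fat and Dachsous cadherins or as downstream Hippo genes were detected, with Fjx1, related to a fly kinase that acts on Fat and Dachsous, at 108 ± 5.18 and Lats1 at 93.9 ± 4.60 CPM. Of the enzymes that process cadherins 7 of 7 were detected, with Ncstn at 86.8 ± 2.53 and the sheddase Adam10 at 86.5 ± 2.87 CPM.

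Other adhesion families related to cadherins differed among themselves. All 3 calsyntenins, synaptic proteins with cadherin repeats, were detected (Clstn1 at 679 ± 44.2, Clstn3 at 203 ± 7.90 and Clstn2 at 65.2 ± 1.46 CPM). Of the nectins, which share junctions with cadherins, 3 of 4 were read, under their older symbols. Pvrl1 (62.5 ± 7.14) and Pvrl3 (52.9 ± 2.68) were detected and Pvrl4 (0.639 ± 0.0567 CPM) was not. Of 9 desmosomal cadherins 3 were detected, none above Dsc1 at 2.93 ± 0.282 CPM, and Dsg1b had 0 reads. Of 5 cadherin-related genes only Cdhr1, known from photoreceptors, was detected, at 9.97 ± 1.09 CPM. Among the other marker lists, 1 of 4 oligodendrocyte, 3 of 5 mural and fibroblast, 2 of 3 Cajal-Retzius and 3 of 4 Schwann or neural crest markers were detected. Their summed levels ranged over 9.11 to 10.4, 35.3 to 39.8, 305 to 321 and 9.21 to 11.7 CPM. The Cajal-Retzius sum was nearly all Reln (308 ± 7.32 CPM). Trp73 had 3.78 ± 0.695 CPM, and Lhx1, at 0.851 ± 0.155 CPM, was not detected. The oligodendrocyte sum was nearly all Mog (9.80 ± 0.715 CPM).

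In the genome, members lay near each other on several chromosomes (GRCm38, GENCODE M21). Some members next to each other in order had like levels in CPM, which is not scaled by length. Pcdh8 and Pcdh17 on chromosome 14 (124 and 104 CPM) are 4672 kb apart with 1 protein-coding gene between. Pcdh11x and Pcdh19 on X (104 and 99.7 CPM) are 12672 kb apart, and Cdh20 and Cdh7 on chromosome 1 (14.2 and 8.11 CPM) 4987 kb apart, each with 20 such genes between. Others did not have like levels, and neighbouring genes at large were not compared. On chromosome 8, Cdh8 and Cdh11 were followed by Cdh5 at 1316 kb with 0 protein-coding genes between, and the level went from 84.6 ± 0.915 to 0.0710 CPM. Cdh3 and Cdh1, 46.1 kb apart, were alike, both at or near 0, while Cdh13 and Cdh15 further on had 325 and 1.14 CPM. On chromosome 15 the type II genes Cdh6, Cdh9, Cdh10, Cdh12 and Cdh18 form a run with 0 protein-coding genes between any of them. Cdh10, at 61.1 CPM, stood alone in that run, the others lying between 7.06 and 12.3 CPM. Per kb of exon the margin was smaller, with 6.08 for Cdh10 against 0.907 (Cdh6) to 2.80 (Cdh9). On chromosome 14, Pcdh20 (12.2 CPM) lies between Pcdh17 (104 CPM) and Pcdh9 (82.0 CPM), with 2 and 0 protein-coding genes in the gaps. On chromosome 2, Cdh26 (0.178 CPM) and Cdh4 (138 CPM) have 0 such genes between them over 955 kb. On chromosome 18, Pcdh1 (147 CPM) and Pcdh12 (0.0355 CPM) are 55 kb apart.

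**Figure D4:**
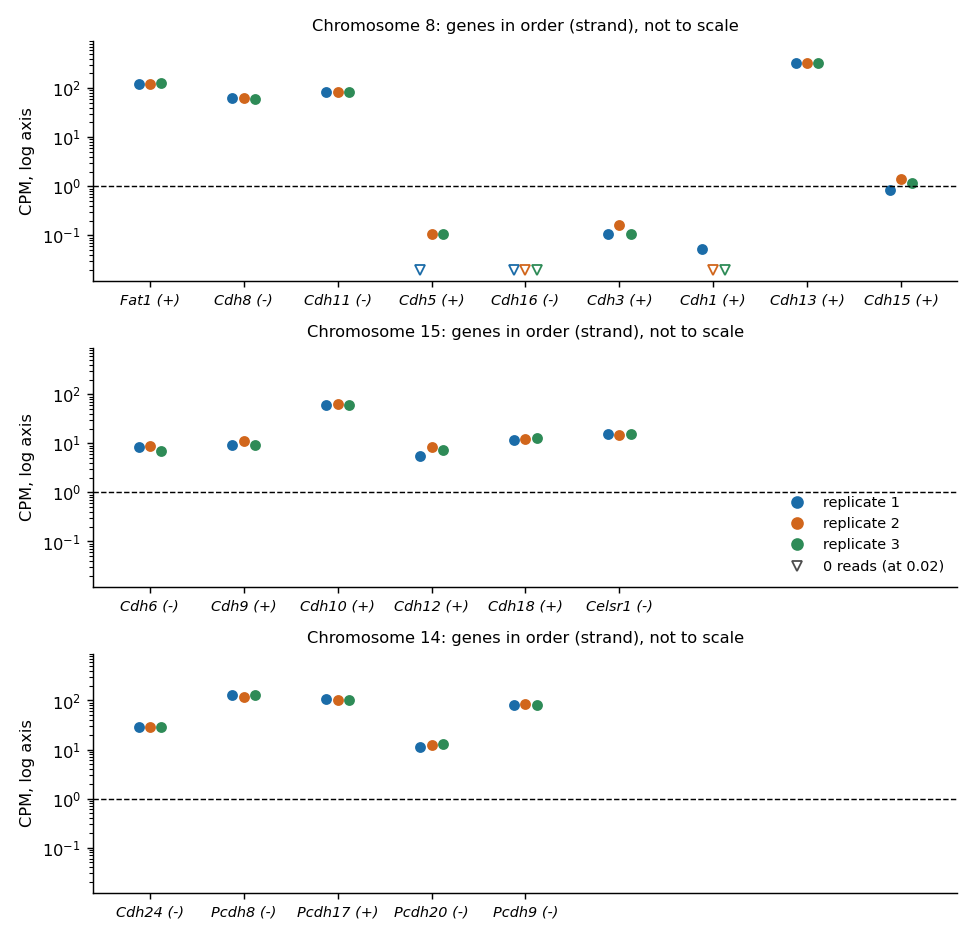
Level (CPM, log axis) in replicates 1, 2 and 3 of the members on chromosomes 8, 15 and 14, in genomic order with the strand in brackets and without scale. Open triangles mark 0 reads and the dashed line 1 CPM; Cdh5, Cdh16, Cdh3 and Cdh1 lie below the line between Cdh11 and Cdh13, and Cdh10 stands above its neighbours on chromosome 15.

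No source used here states whether reads were counted by strand, so reads of genes overlapping a member's exons cannot be told apart from its own with certainty. Exons of 12 members were overlapped by another annotated gene, 6 of them over more than 5% of their length. These were Pcdh7 (21.1%), Dchs2 (12%), Pcdh8 (9.61%), Fat4 (8.68%), Cdh9 (6.33%) and Dchs1 (5.86%), each by an antisense gene. The overlapping gene with the most reads, C230034O21Rik at Fat4, had 186 reads over the 3 libraries, and the one at Pcdh7 had 54.

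The members varied little between the libraries. Among the 20 members averaging at least 1000 reads, the highest library was at a median of 1.05 times the lowest, against 1.06 for all genes of that depth. Beyond counting error (Pearson chi-square test on recovered reads, Benjamini-Hochberg adjusted over 15131 genes), 2 of the 35 members tested differed between libraries, against 8.62% of all genes tested. Both were among the 20 deep ones, where 22.1% of all genes differed. Celsr2 was lowest in replicate 2 and highest in replicate 3, a 1.13-fold range (adjusted p = 0.00111 by that chi-square test). Pcdh8 was also lowest in replicate 2, with a 1.09-fold range (adjusted p = 0.0396 by the same test). Against the dispersion trend of all genes, 0 of the 35 members and 0.330% of genes passed, and 1 member had an unadjusted p under 0.05.

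Replicate 2 moved with GC content. Celsr2 and Pcdh8 have exons of 58.40% and 59.33% GC. Of the 5 members above 55% GC and 1000 reads (Celsr2, Dchs1, Pcdh8, Celsr3 and Pcdh1), 4 were lowest in replicate 2, all except Celsr3. Of all genes in that class 77.3% were lowest there. Below 45% GC the figures were 1 of 6 members and 15.9% of genes. From 45% to 55% GC they were 1 of 9 members and 41.7% of genes, a difference that rests on few members and was not tested. Of all 20 deep members, 11 were lowest in replicate 1, against 28.1% of all genes of that depth, and 6 in replicate 2, against 41.2%. With size factors fitted within bins of GC content and length, a setting chosen after seeing the data, neither gene passed (adjusted p 0.485 for Celsr2 and 0.881 for Pcdh8 by the chi-square test). Without replicate 2 neither passed either (0.390 and 0.983). That setting takes away the library in which both were lowest, so nothing is concluded from it. The share of all genes called was 4.77% with the bins and 2.20% without replicate 2. Without replicate 3 Celsr2 did not pass (0.109).

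**Figure D5:**
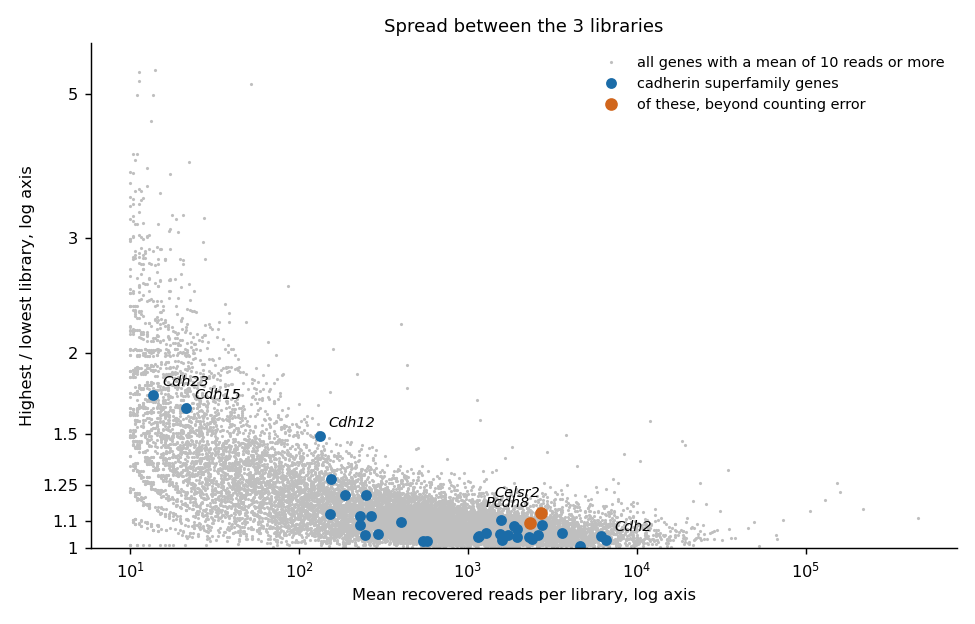
Highest over lowest library (vertical axis, fold, log scale, ending at 6) against mean recovered reads per library (horizontal axis, log scale) for all genes averaging at least 10 reads (grey) and the 35 cadherin superfamily genes among them (blue; orange where beyond counting error). Celsr2 and Pcdh8 lie within the grey cloud at their depth, and the wider ranges belong to members with few reads such as Cdh23, Cdh15 and Cdh12.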

How the data were processed

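RNA sequencing gave 3 libraries of 1 group. The authors deposited 1 log2 value per gene and library. Per the submitters' processing notes, FastQC, HISAT2, featureCounts and DESeq2 were used on GRCm38; versions, settings and strandedness were not given in the sources used here. These values have the form of a regularized log2, in which differences between libraries of genes with few reads are pulled toward 0. Whole reads were therefore recovered by inverting that fit with 6 fitted parameters (of 77088 values, 99.96% lay no more than 0.1 from a whole read; for members the distance was at most 0.06086).

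Detection and pair ratios used the deposited values (2 raised to the value, per 1000000, 0.5 added to levels per kb in ratios); printed CPM and SDs are from recovered reads. Means ± SD are over n = 3. Floors and chi-square tests cover only the error of counting, because without molecular identifiers several reads can stem from 1 molecule. Lengths, coordinates and GC content came from GENCODE M21. Pair tests were Benjamini-Hochberg adjusted over 22 pairs. Variation was tested with chi-square statistics on 2 degrees of freedom, with median-of-ratios size factors, for genes averaging at least 10 reads. The script was tested on simulated data. Alternatives covered scale, threshold, length, pseudocount, normalization, filters and left-out replicates.

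The members, role groups, gene pairs and lists were chosen with earlier results of these data known. Named in full were members that lead their role group, answer a pair or lie next to the detection threshold; others are given by range, count or reads. Some listed genes are not reported here. Python 3.11.15, numpy 2.4.6, pandas 2.3.3, scipy 1.17.1 and matplotlib 3.10.9 were used.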

Additional observations from a re-analysis of the deposited data

How the results depend on the processing

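Of 200 alternatives for the detected count, the share, the median level, the pair ratios and the members that differ between libraries, 192 kept the direction of a ratio or left a count or level within its limit. Many of these could not have turned a ratio. The same pseudocount on both genes keeps the direction. So does leaving out 1 replicate, because all 3 libraries had the same direction in every pair. A count of 3 in place of 2, or of 2 with other genes, was also taken as within its limit. Sizes of ratios still changed: Cdh13 against Cdh2 went from -0.57 to -0.01 with the longest transcript, and Cdh9 against Cdh10 from -1.0 to -2.56 without length scaling. Pcdh15 against Cdh23 went from 0.96 to 3.49 without length scaling, to 2.20 with a pseudocount of 0.1 and to 0.14 with 5. Its size rests on the pseudocount of 0.5, as the 2 genes had only 0.558 and 0.0430 CPM per kb. The ratios with Cdh1 or Fat2 moved most with the pseudocount and the length scaling. Without length scaling, Pcdh9 against Pcdh7 came to -0.17, Pcdh17 against Pcdh19 to 0.06 and Pcdh8 against Pcdh10 to -0.98 on the log2 scale, and with the longest transcript the last was -0.11; these turned because the lengths differ. The count of members differing between libraries, 2, became 1 with any read as the filter, 0 against the dispersion trend and 0 with GC and length bins. It ranged from 0 to 3 with 1 replicate left out. The share of all genes called changed as well, from 8.62% to 4.34% with any read, 0.330% against the trend and 4.77% with the bins. Without replicates 1, 2 and 3 in turn it was 7.83%, 2.20% and 5.49%. Without replicate 1 Pcdh1 was added, and without replicate 3 Cdh12 joined Pcdh8 while Celsr2 was lost; the cause was not tested. The detected count ranged from 33 to 35. Of 176 alternatives for single levels, 2 moved (Cdh17 and Cdh1, both near 0).

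With 3 libraries no pair test can pass 0.05, depth limits statements on members with a few reads, and levels per kb rest on annotated lengths. No paired analysis was possible because there is 1 group.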
